A study of Homo sapiens with 8 samples.

Results

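The genes described here encode the soluble factors that start protein synthesis and carry it along the mRNA, followed in 2 clear cell renal cell carcinoma lines kept with or without branched-chain amino acids (BCAA). They were chosen by name: every row of both expression tables whose Ensembl identifier belongs, in GENCODE 29, to a protein-coding gene with a symbol that starts with EIF or EEF. The eIF2 alpha kinases (EIF2AK), the eIF4E-binding proteins (EIF4EBP), EEF1E1 and the EEF1A lysine methyltransferases (EEF1AKMT) were left out by that rule. It gave 58 annotated genes, of which 54 had a row in both tables, out of 25431 genes listed for 769-P and 24190 listed for CAKI-1. The other 4, EEF1D, EEF1G, EIF4E1B and EIF1AY, were not analysed here. All 54 passed the filter on low values in both lines, with at least 28 reads in any library.

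The 8 libraries formed 4 groups of 2: 769-P with BCAA, 769-P without BCAA, CAKI-1 with BCAA and CAKI-1 without BCAA. 769-P and CAKI-1 are established human kidney carcinoma lines, obtained from a repository and each grown in its own basal medium with serum. For the experiment both lines were held for 16 h in an amino acid-defined medium with dialysed serum that lacked BCAA, or in the same medium with the BCAA added, at 0.38 mM each for leucine and isoleucine and at 0.17 mM for valine. BCAA is therefore the added agent, and every fold change below is with BCAA relative to without it. No engineered change is named in the labels, no other difference between the media is stated, and 1 time point was sampled. The labels do not say whether the 2 libraries of a group came from separate cultures, so the p-values measure the spread between these libraries, which may be technical.

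Values are whole reads divided by 1 size factor per library, fixed separately in each line, and are called normalized values. They are not corrected for gene length, so levels of different genes are set side by side only per kilobase of annotated exon, and levels are not set side by side across lines. Libraries held 30979773 to 64256834 reads on listed genes. In 769-P both libraries with BCAA were deeper (64256834 and 55829324 reads) than both without it (39062721 and 40130258 reads), so that depth and condition moved together there. The 2 libraries of a group differed by more than counting noise, with a chi-square per gene of 3.70 to 16.3. Of 8 renal markers, PAX8 had 8345 to 20096 reads in every library, PAX2 was listed only for 769-P, and CA9 was listed in neither table. NDUFA4L2 had 1 to 3 reads in 769-P and 91 to 215 in CAKI-1. The summed normalized value of the renal markers was 128361 to 132257 with BCAA and 136958 to 139323 without it in 769-P. In CAKI-1 it was 79654 to 82886 against 117073 to 121206. Most of each sum was VIM, with 72094 to 111391 reads in 769-P and 66423 to 109536 in CAKI-1. Of 6 markers of leukocytes, endothelium and fibroblasts, 4 were listed for 769-P and 2 for CAKI-1. Their sum was 156 to 189 with BCAA and 216 to 217 without it in 769-P, and 120876 to 145223 against 98649 to 116382 in CAKI-1. Most of both sums was COL1A1, the fibrillar collagen chain. Without it the sum was 10.6 to 11.1 with BCAA against 2.48 to 3.67 without it in 769-P, and 26.3 to 29.1 against 39.9 to 50.2 in CAKI-1. CD3E and CDH5 were listed in neither table. The part of these markers in the results was not tested.

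Initiation begins when eIF2, loaded with GTP and the initiator methionyl-tRNA, joins eIF1, eIF1A, eIF3 and eIF5 on the small ribosomal subunit. The eIF4 factors bind the mRNA cap, unwind the leader and bring mRNA and ribosome together, eIF5B joins the large subunit, and eEF1A and eEF2 then drive each round of elongation. eIF2B recharges eIF2 with GTP and is the step blocked when eIF2 is phosphorylated under amino acid shortage. Leucine is a well known activator of mTORC1, the kinase that governs cap-dependent translation and, with particular strength, the translation of mRNAs that begin with a run of pyrimidines. Many mRNAs of translation factors belong to that class.

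BCAA moved the factors in both directions, and 29 of the 54 were called the same way in both lines. A gene was called when the adjusted p of limma, computed on log2(value + 1) and adjusted by Benjamini-Hochberg over all genes tested in a line, was under 0.05. In 769-P, 18 members were higher and 23 lower with BCAA. Of all 22391 genes tested there, 20.3% were called higher and 18.2% lower. In CAKI-1, 12 members were higher and 20 lower, beside 10.8% and 9.05% of 21347 genes. The factors are abundant, and abundant genes are called more often. Among genes averaging a value of 1000 or more, 38.6% were called higher and 31.1% lower in 769-P, and 23.2% and 16.8% in CAKI-1. By that measure the 18 of 54 called higher in 769-P and the 12 in CAKI-1 were no larger shares than among abundant genes. The 23 called lower in 769-P and the 20 called lower in CAKI-1 were larger shares.

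Of the 54 factors, 19 were lower in both lines and 10 were higher in both, whereas 5.83% of the 19406 genes tested in both lines were lower in both and 8.53% were higher in both. No member was called in opposite directions. Such calls were rare among all genes too, at 1.32%, so that none among 54 is near that share. The conditions did not overlap for 50 of 54 members in 769-P, beside 67.0% of all genes tested. In CAKI-1 they did not overlap for 43 of 54, beside 57.7%. These shares are over all genes and were not computed for abundant genes alone. The near-identical copies EIF2S3 and EIF2S3B count separately among the 19, and EIF5A and EIF5AL1 among the 10. The median log2 fold change of the 54 was -0.06 in 769-P and -0.04 in CAKI-1, near the medians over all genes of -0.02 and -0.01. The factors did not share one shift.

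**Figure D1:**
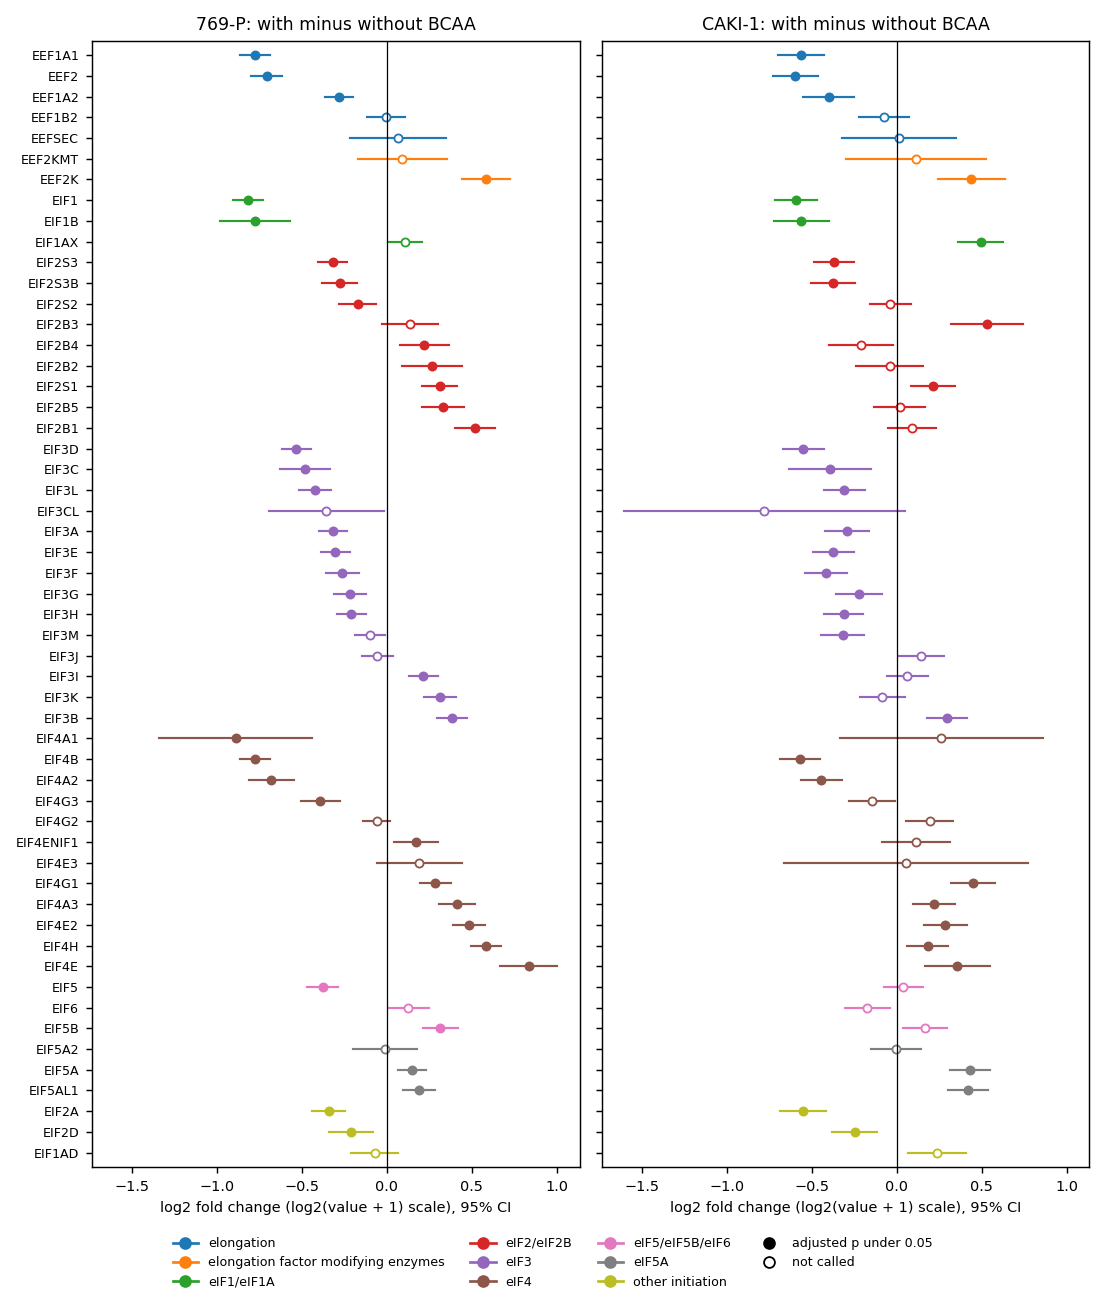
Log2 fold change with BCAA relative to without it for each of 54 factors, with the 95% confidence interval, in 769-P (left) and CAKI-1 (right), coloured by group. Filled points had an adjusted p under 0.05. EEF1A1, EEF2, EIF1, EIF1B, EIF4B and EIF4A2 sit on the left in both panels and EIF4E, EIF4H, EEF2K and EIF4G1 on the right.

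Among the elongation factors, the core factors were lower with BCAA in both lines and none was higher. Of 5 measured members, 3 were called lower and 2 were not called in each line, with medians of -0.28 in 769-P and -0.40 in CAKI-1. The share called lower over all genes tested was 18.2% in 769-P and 9.05% in CAKI-1. EEF2, the translocase that moves the ribosome by a codon, had normalized values of 65118 and 60726 with BCAA and 101457 and 103968 without it in 769-P. Its values in CAKI-1 were 134273 and 139031 with BCAA and 206022 and 206662 without it. All libraries with BCAA were below all libraries without it in both lines. EEF2 fell by 0.71 on the log2 scale in 769-P (SE 0.0414, adjusted p of limma 6.73e-08) and by 0.59 in CAKI-1 (SE 0.0605, adjusted p of limma 6.17e-05).

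EEF1A1, which delivers aminoacyl-tRNAs to the ribosome, followed the same course. Its normalized values were 52125 and 55281 with BCAA and 91851 and 91966 without it in 769-P, and 73581 and 78563 against 109308 and 115347 in CAKI-1. The log2 fold changes were -0.78 (SE 0.0393, adjusted p of limma 1.98e-08) and -0.56 (SE 0.0617, adjusted p of limma 0.000103). EEF1A1 has many processed pseudogenes that share its reads, and how the counting split them is not given in the sources used here. EEF1A2, the paralog known from muscle and neurons, had 22668 and 22544 with BCAA and 27311 and 27588 without it in 769-P, a log2 fold change of -0.28. In CAKI-1 it had 2553 and 2534 against 3543 and 3181, a log2 fold change of -0.40, and both were called. Within 769-P the per-kilobase level of EEF1A2, over both conditions, averaged 5097 beside 12240 for EEF1A1, and within CAKI-1 601 beside 15837.

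The exchange factor subunit EEF1B2 and the selenocysteine-specific factor EEFSEC were not called in either line. EEF1B2 had 5768 and 6148 with BCAA and 5807 and 6140 without it in 769-P, and 5039 and 5644 against 5534 and 5693 in CAKI-1, with overlap in both. Its log2 fold changes were -0.00 in 769-P (95% confidence interval from -0.12 to 0.11) and -0.07 in CAKI-1 (from -0.22 to 0.07). Other genes of the same strand cover 16.4% of its exon bases. EEF2K, the kinase that phosphorylates and inhibits eEF2, was higher in both lines, opposite to its substrate. EEF2K had 2493 and 2364 with BCAA and 1555 and 1691 without it in 769-P, and 1130 and 1088 against 876 and 763 in CAKI-1. Its log2 fold changes were 0.58 (SE 0.0647, adjusted p of limma 1.6e-05) and 0.44 (SE 0.0902, adjusted p of limma 0.0054). EEF2KMT, which methylates eEF2, was not called in either line, with log2 fold changes of 0.09 and 0.12.

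**Figure D2:**
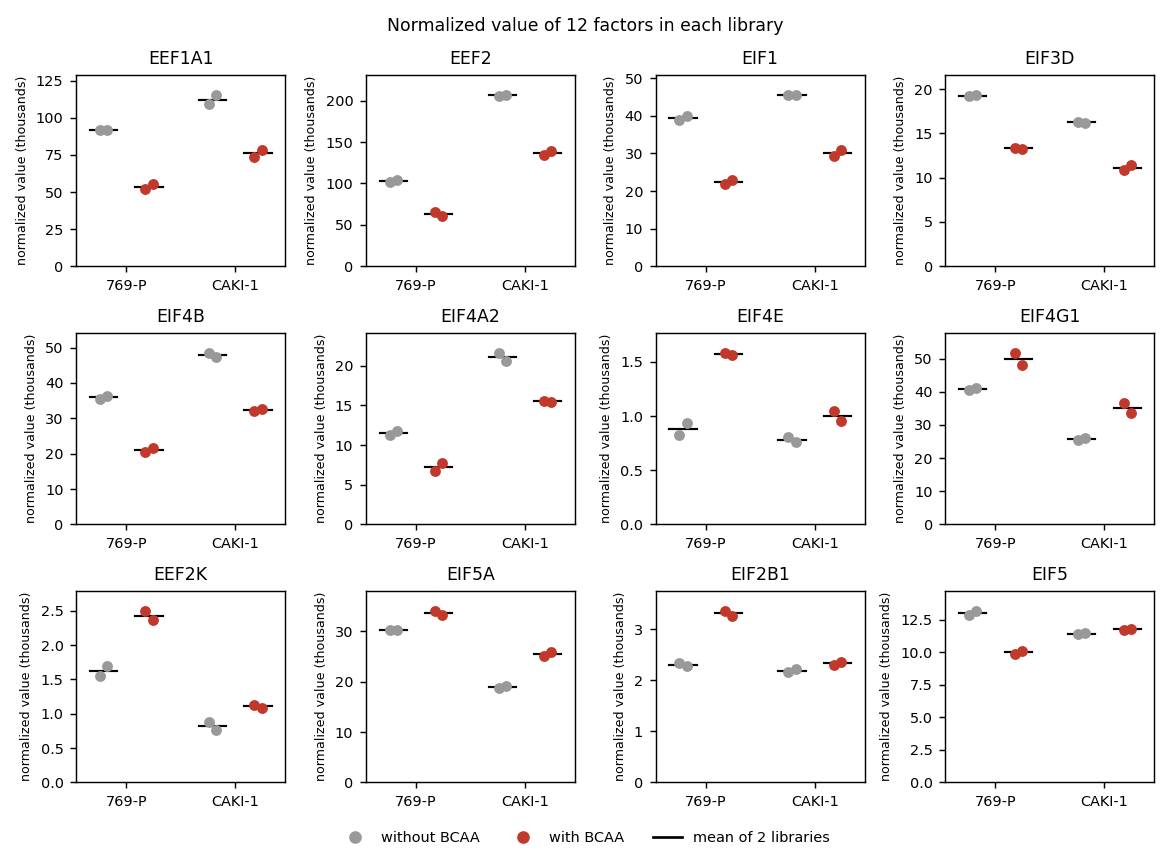
Normalized value of 12 factors in each library, with grey points for libraries without BCAA, red points for libraries with BCAA and bars for the mean of 2 libraries. Each axis starts at 0. The 12 were picked for display, and each was called in at least 1 line. The groups do not overlap in either line for any of them, beside 67.0% of all genes tested in 769-P and 57.7% in CAKI-1. EIF2B1 and EIF5 were called only in 769-P.

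EIF1 and EIF1B, which guard start codon selection during scanning, were among the most reduced factors in both lines, while EIF1AX was not. EIF1 had normalized values of 21871 and 22916 with BCAA and 38985 and 39961 without it in 769-P. In CAKI-1 it had 29361 and 31043 against 45528 and 45424. The log2 fold changes were -0.82 (SE 0.04, adjusted p of limma 1.43e-08) and -0.59 (SE 0.0552, adjusted p of limma 3.42e-05). EIF1B, its paralog at a far lower per-kilobase level, had 718 and 873 with BCAA and 1314 and 1395 without it in 769-P, and 1068 and 1054 against 1581 and 1548 in CAKI-1. It fell by 0.77 and 0.56 on the log2 scale, close to EIF1 in each line. EIF1AX, the X-linked gene for eIF1A, had 5184 and 4863 with BCAA and 3571 and 3549 without it in CAKI-1, a log2 fold change of 0.50 (SE 0.0602, adjusted p of limma 0.000207). In 769-P it had 7686 and 8104 against 7418 and 7226, a log2 fold change of 0.11 that was not called (adjusted p of limma 0.0888).

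The eIF2 and eIF2B genes split by complex and by subunit in 769-P, whereas in CAKI-1 4 of the 5 eIF2B subunits were not called. Of the 9 genes, 5 were higher and 3 lower in 769-P, and 2 were higher and 2 lower in CAKI-1, with medians of 0.22 and -0.04. The shares over all genes tested were 20.3% higher and 18.2% lower in 769-P, and 10.8% and 9.05% in CAKI-1. EIF2S3, the gamma subunit that holds GTP and the initiator tRNA, had normalized values of 13304 and 13305 with BCAA and 16396 and 16798 without it in 769-P, and 12937 and 12985 against 17073 and 16398 in CAKI-1. It fell by 0.32 on the log2 scale in 769-P (SE 0.0397, adjusted p of limma 4.16e-05) and by 0.37 in CAKI-1 (SE 0.0533, adjusted p of limma 0.000652). The alpha subunit EIF2S1, whose phosphorylation lowers initiation, went the other way. EIF2S1 had 6367 and 6254 with BCAA and 4965 and 5213 without it in 769-P, and 5777 and 5639 against 4778 and 5069 in CAKI-1, with log2 fold changes of 0.31 and 0.21, both called. The beta subunit EIF2S2 fell by 0.17 in 769-P and had a log2 fold change of -0.04 in CAKI-1, where its conditions overlapped. EIF2S3B, a near-identical copy of EIF2S3 on another chromosome, stood at 0.443 to 0.475 of the EIF2S3 value in all 8 libraries. It had 6126 and 6209 with BCAA and 7261 and 7680 without it in 769-P, and 6143 and 5934 against 8086 and 7576 in CAKI-1. The log2 fold changes of EIF2S3B, -0.28 and -0.37, are uncertain because the copies can share reads.

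All 5 eIF2B subunits had positive log2 fold changes in 769-P, from 0.14 to 0.52, and 4 of them were called higher, beside 20.3% of all genes tested. EIF2B1, the alpha subunit of the regulatory part, had 3354 and 3269 with BCAA and 2331 and 2287 without it there, a log2 fold change of 0.52 (SE 0.0533, adjusted p of limma 8.09e-06). In CAKI-1 its values were 2295 and 2370 against 2160 and 2215, a log2 fold change of 0.09 (adjusted p of limma 0.374). EIF2B5, the catalytic epsilon subunit, had 2827 and 2906 with BCAA and 2328 and 2232 without it in 769-P, and 1949 and 1855 against 1861 and 1894 in CAKI-1, where the conditions overlapped. EIF2B4, the delta subunit, had log2 fold changes of 0.22 (called) and -0.21 (not called, adjusted p of limma 0.121), and EIF2B2, the beta subunit, 0.27 (called) and -0.04 (not called). EIF2B3, the gamma subunit, was the one called in CAKI-1. It had 1065 and 1083 with BCAA and 808 and 683 without it there, a log2 fold change of 0.53 (SE 0.0955, adjusted p of limma 0.00244). In 769-P its values were 1149 and 1266 against 1101 and 1094, a log2 fold change of 0.14 that was not called. Of annotated EIF2B2 and EIF2B1 exon bases, 23.6% and 15.6% lie under exons of other genes on the opposite strand, and whether the counting used strand is not given in the sources used here.

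Most eIF3 subunits, the large scaffold on the small ribosomal subunit, were lower with BCAA. Of 14 genes, 8 were lower and 3 higher in 769-P, and 9 were lower and 1 higher in CAKI-1, with medians of -0.24 and -0.31. Over all genes tested, 18.2% were lower and 20.3% higher in 769-P, and 9.05% and 10.8% in CAKI-1. The reduced subunits in both lines were EIF3A, EIF3C, EIF3D, EIF3E, EIF3F, EIF3G, EIF3H and EIF3L. EIF3D, the subunit that can itself bind the cap, had the lowest log2 fold change of the group in 769-P, with normalized values of 13404 and 13268 with BCAA and 19235 and 19338 without it. In CAKI-1 it had 10838 and 11409 against 16348 and 16165. It fell by 0.53 (SE 0.0389, adjusted p of limma 4.55e-07) and 0.55 (SE 0.0544, adjusted p of limma 5.18e-05) on the log2 scale. EIF3A, the largest subunit and a core of the complex, had 40803 and 39838 with BCAA and 50456 and 49935 without it in 769-P, and 45750 and 42360 against 54322 and 53378 in CAKI-1. Its log2 fold changes were -0.32 and -0.29. EIF3L had 7540 and 7547 with BCAA and 9947 and 10294 without it in 769-P, and 5941 and 6102 against 7539 and 7362 in CAKI-1, with 41.1% of its exon bases under another annotated gene on the same strand. EIF3F had 5134 and 5092 against 6089 and 6170 in 769-P and 5415 and 5619 against 7319 and 7395 in CAKI-1, log2 fold changes of -0.26 and -0.42. EIF3E had 24979 and 26039 against 31166 and 31736 in 769-P and 30488 and 31067 against 40891 and 38865 in CAKI-1. EIF3G and EIF3H, like EIF3E, had every library with BCAA below every library without it in both lines. EIF3G had 7619 and 7808 against 8877 and 9041 in 769-P and 5438 and 5933 against 6678 and 6560 in CAKI-1. EIF3H had 19875 and 19817 against 22626 and 23280 in 769-P and 23753 and 24156 against 30164 and 29299 in CAKI-1. The 3 genes fell by 0.21 to 0.37 on the log2 scale in the 2 lines.

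EIF3B, the other large core subunit, was higher with BCAA in both lines, with 22298 and 21287 against 16624 and 16817 in 769-P and 21680 and 21790 against 18134 and 17300 in CAKI-1. Its log2 fold changes were 0.38 (SE 0.0407, adjusted p of limma 1.13e-05) and 0.30 (SE 0.0537, adjusted p of limma 0.00262), so that the scaffold subunits EIF3A and EIF3B moved apart. EIF3I and EIF3K were higher in 769-P, by 0.21 and 0.31, with log2 fold changes of 0.06 and -0.08 in CAKI-1 that were not called. EIF3M was lower in CAKI-1, by 0.32, and had a log2 fold change of -0.10 in 769-P that was not called. EIF3J, a loosely bound subunit, was not called in either line, with -0.06 and 0.14. EIF3C has a near-identical neighbouring copy, EIF3CL, and both rows are uncertain. EIF3C had 1169 and 1212 with BCAA and 1702 and 1624 without it in 769-P and 739 and 949 against 1121 and 1078 in CAKI-1, and EIF3CL stood at 0.0789 to 0.18 of it, with 58.4 and 171 against 190 and 156 in CAKI-1.

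Within eIF4, the group of the cap-binding complex, EIF4E and EIF4G1 were higher with BCAA in both lines, and EIF4A2 and EIF4B were lower in both. Of 12 genes, 6 were higher and 4 lower in 769-P, and 5 were higher and 2 lower in CAKI-1, with medians of 0.18 and 0.19. Among all genes tested, 20.3% were higher and 18.2% lower in 769-P, and 10.8% and 9.05% in CAKI-1. The eIF4 counts called lower were near the shares among genes averaging 1000 or more, 31.1% in 769-P and 16.8% in CAKI-1. EIF4E, which binds the cap, had normalized values of 1580 and 1563 with BCAA and 828 and 936 without it in 769-P, and 1051 and 956 against 807 and 758 in CAKI-1. The conditions did not overlap in either line. The log2 fold change was 0.84 in 769-P (SE 0.0769, adjusted p of limma 3.23e-06), the highest of all 54 members there, and 0.36 in CAKI-1 (SE 0.0877, adjusted p of limma 0.0142).

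EIF4G1, the scaffold that joins eIF4E, eIF4A and eIF3, had 51631 and 48203 with BCAA and 40663 and 41212 without it in 769-P, and 36609 and 33515 against 25320 and 25997 in CAKI-1. Its log2 fold changes were 0.29 and 0.45, both called. EIF4E2, a cap-binding relative known for repressing translation, had 7892 and 7858 against 5577 and 5688 in 769-P and 5036 and 4903 against 4018 and 4124 in CAKI-1, log2 fold changes of 0.48 and 0.29, with 24.2% of its exon bases under opposite-strand genes. EIF4H, a cofactor of the helicase, had 24016 and 23150 against 15766 and 15675 in 769-P and 14902 and 14023 against 12746 and 12730 in CAKI-1. It rose by 0.58 (SE 0.0396, adjusted p of limma 2.39e-07) and 0.18 (SE 0.0552, adjusted p of limma 0.0382). EIF4A3, the helicase relative that anchors the exon junction complex, had 5563 and 5389 against 4053 and 4174 in 769-P and 6789 and 7093 against 6056 and 5851 in CAKI-1. It rose by 0.41 and 0.22.

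EIF4B, the other cofactor of the helicase, moved against EIF4H. It had 20417 and 21600 with BCAA and 35494 and 36430 without it in 769-P, and 32059 and 32591 against 48435 and 47487 in CAKI-1. EIF4B fell by 0.78 (SE 0.0414, adjusted p of limma 3.02e-08) and 0.57 (SE 0.0532, adjusted p of limma 3.44e-05) on the log2 scale. EIF4A2, a helicase gene of the eIF4F complex, had 6708 and 7687 against 11254 and 11769 in 769-P and 15549 and 15493 against 21603 and 20583 in CAKI-1, log2 fold changes of -0.68 and -0.44. Small nucleolar RNA genes and other genes of the same strand cover 10.5% of its exon bases. EIF4A1, its paralog, is uncertain: 48.6% of its exon bases lie under other genes of the same strand, among them the SENP3-EIF4A1 readthrough, and its values were only 75.1 and 89.8 with BCAA and 166 and 141 without it in 769-P. There it was called lower, with a log2 fold change of -0.89 (SE 0.206, adjusted p of limma 0.00437). In CAKI-1 it had 113 and 75.7 against 64.6 and 91.4, and the conditions overlapped.

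The remaining eIF4 genes were called in 769-P alone or in neither line. EIF4G3, a scaffold paralog, had 3365 and 3326 with BCAA and 4246 and 4533 without it in 769-P, a log2 fold change of -0.39, and -0.15 in CAKI-1 that was not called. EIF4G2, the relative that lacks the eIF4E-binding site, was not called in either line, with -0.06 in 769-P and 0.20 in CAKI-1 (adjusted p of limma 0.0502). EIF4ENIF1, the transporter of eIF4E, had 0.17 in 769-P (called, adjusted p of limma 0.0377) and 0.12 in CAKI-1 (not called). EIF4E3, a further cap-binding relative, had 357 to 358 with BCAA and 307 to 319 without it in 769-P and 34.9 to 47.7 in CAKI-1, and was not called.

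EIF5, which triggers GTP hydrolysis by eIF2, fell in 769-P alone among the calls. It had 9895 and 10125 with BCAA and 12847 and 13172 without it there, a log2 fold change of -0.38 (SE 0.0416, adjusted p of limma 1.46e-05), and 11755 and 11784 against 11443 and 11470 in CAKI-1, a log2 fold change of 0.04 that was not called. EIF5B, which joins the large subunit, had 17520 and 19144 against 14830 and 14633 in 769-P, a rise of 0.31, and 0.17 in CAKI-1 that was not called. EIF6, which keeps the subunits apart, had 0.12 and -0.17 and was called in neither line, with 17.4% of its exon bases under another gene of the same strand. EIF5A, the hypusine-bearing factor that relieves stalls, was higher in both lines. EIF5A had 34004 and 33245 with BCAA and 30368 and 30353 without it in 769-P, and 25110 and 25973 against 18739 and 19152 in CAKI-1. Its log2 fold changes were 0.15 (SE 0.0371, adjusted p of limma 0.00737) and 0.43 (SE 0.0532, adjusted p of limma 0.000237). EIF5AL1, a near-identical copy, stood at 0.369 to 0.391 of the EIF5A value in all 8 libraries, with 13305 and 12660 against 11558 and 11212 in 769-P and 9572 and 9773 against 7244 and 7210 in CAKI-1, and cannot be told apart from it by its course. EIF5A2, the more distant paralog, had -0.01 and -0.00 with overlapping conditions in both lines. EIF2A, an alternative carrier of the initiator tRNA that is distinct from eIF2, had 5187 and 5180 against 6609 and 6532 in 769-P and 3812 and 3904 against 5885 and 5437 in CAKI-1. It fell by 0.34 and 0.55. EIF2D, a factor of recycling and reinitiation, had 3516 and 3337 against 4142 and 3791 in 769-P and 2944 and 3018 against 3471 and 3601 in CAKI-1. It fell by 0.21 and 0.25, and EIF1AD had -0.07 and 0.24 and was called in neither line.

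The summed reads of the groups changed unequally. The 5 elongation genes took 2997 and 3040 RPM (reads scaled to the library's listed reads) with BCAA and 4674 and 4688 without it in 769-P, and 5477 and 5772 against 8211 and 8305 in CAKI-1. That is 0.645 and 0.681 of the level without BCAA. The 14 eIF3 genes stood at 0.905 and 0.862 of it, and the 12 eIF4 genes at 1.002 and 0.996. All 54 members together took 1.44% of reads with BCAA and 1.68% without it in 769-P, and 1.82% against 2.18% in CAKI-1. EEF1A1 and EEF2 alone made up 0.242% and 0.399% of reads in 769-P and 0.542% and 0.803% in CAKI-1. These sums are dominated by long and abundant mRNAs and were not tested.

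**Figure D3:**
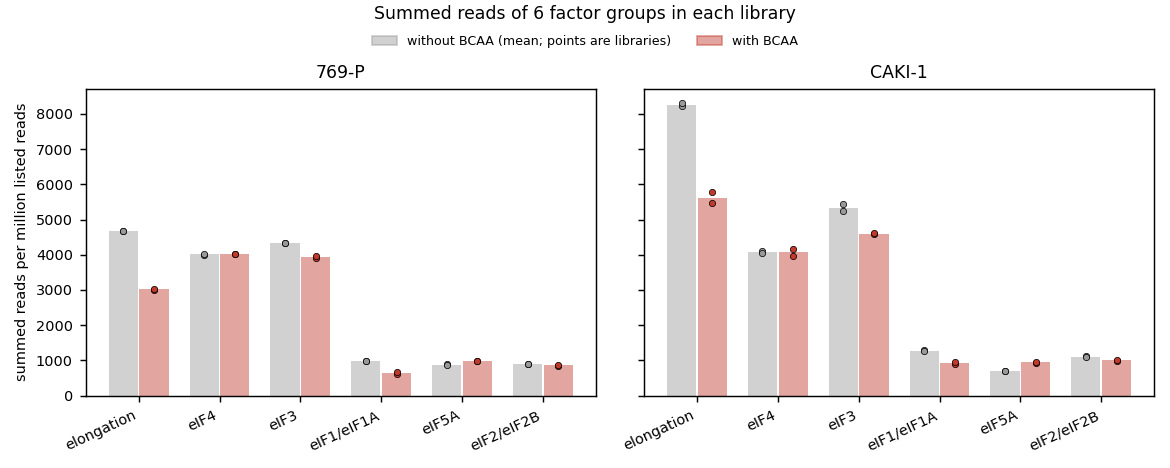
Summed RPM of 6 factor groups in 769-P (left) and CAKI-1 (right), with bars for the mean and points for each of 2 libraries, grey without BCAA and red with BCAA. The elongation bars drop from about 4681 to 3018 in 769-P and from 8258 to 5625 in CAKI-1, while the eIF4 bars are level.

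Per kilobase of annotated exon, EEF2 had the highest mean normalized value of the 54 in both conditions of both lines, and the order below it changed with BCAA. In 769-P with BCAA, EEF2 at 15625 was followed by EIF5A at 11945, EIF3I at 9269 and EEF1A1 at 9029, as means of 2 libraries. Without BCAA, EEF2 at 25506 was followed by EEF1A1 at 15452, EIF1 at 10895 and EIF5A at 10785. In CAKI-1 EEF1A1 came second in both conditions, ahead of EIF5A at 9073 and EIF1 at 8336 with BCAA and of EIF1 at 12552 and EIF4B at 7804 without it. The differences between neighbours in this order were not tested. The order depends on the annotated exon lengths, 4027 bases for EEF2, 5948 for EEF1A1 and 1725 for EIF3I. It also depends on how the counting split reads that EEF1A1 shares with its pseudogenes. As means over both conditions, EIF4E stood at 87.2 in 769-P and 63.5 in CAKI-1, far below EIF4G1 at 5502 and 3677. EIF4E has 14067 bases of annotated exon, more than any one transcript uses, so its per-kilobase level is an underestimate.

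The lines were compared directly as the BCAA effect in 769-P minus that in CAKI-1, over 8 libraries and the genes tested in both. Of 54 members, 8 were further up and 11 further down in 769-P, beside 10.9% and 10.1% of 19406 genes. EIF5 (difference -0.42, 95% confidence interval from -0.55 to -0.28, adjusted p of limma 0.000291), EIF4H (0.40, from 0.26 to 0.54, adjusted p of limma 0.000621), EIF3K (0.40, from 0.25 to 0.55) and EIF2B1 (0.43, from 0.26 to 0.60) differed. Their values did not overlap between conditions in 769-P, as was so for 67.0% of all genes tested there. EIF2B4 and EIF2B5 were further up in 769-P by 0.43 and 0.31, and EIF2B3 further down by 0.39. The EIF2B3 difference was not called at an adjusted p of limma under 0.01, with the replicate block or without any of 6 of the 8 libraries, with adjusted p-values up to 0.15. Of the 19 differences, 6 were called under every alternative run: EIF1AX, EIF2B1, EIF3K, EIF4H, EIF5 and EIF5A. EIF4E was further up by 0.48, and EIF5A and EIF1AX were further down by 0.28 and 0.39. For EEF2 the difference was -0.11 (from -0.26 to 0.04) and for EIF3D it was 0.02 (from -0.12 to 0.15), neither called. Across the 54 members the log2 fold changes of the lines had a Pearson correlation of 0.731 and a Spearman correlation of 0.735, beside a Pearson correlation of 0.641 over the 6070 genes that averaged 1000 or more in each table. Members are not replicates, and copies among them share reads.

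**Figure D4:**
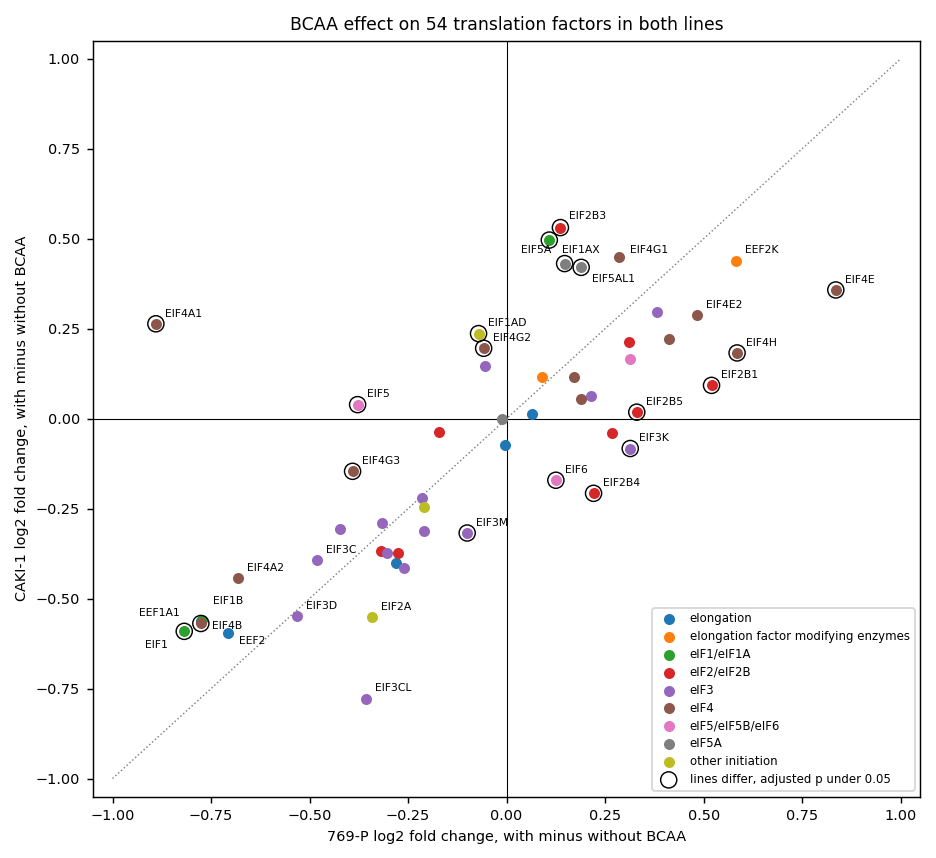
Log2 fold change with BCAA in 769-P (x) against CAKI-1 (y) for 54 factors, coloured by group. Black rings mark the 19 factors whose effect differed between the lines, and the dotted line marks equal effects. 45 of 54 points have the same sign in both lines.

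The starts of these genes were read next, because mRNAs that begin with a pyrimidine run are a known class of mTORC1-sensitive messages. RefSeq promoters (GRCh38.p14) were found for 45 of the 54 members, and EEF1A2, EEF2KMT, EIF2S2, EIF3A, EIF3CL, EIF3E, EIF3G, EIF3H and EIF3L were not matched. In the 30 bases from 10 before the annotated start onwards, the longest uninterrupted run of C or T was measured. This feature was chosen after the fold changes were seen, so its counts are a description with no test. Windows are shown for factors that were lower in both lines, 5′ to 3′ on the gene's strand, with that run in capitals.
EEF1A1 (chr6:73521013-73521042, minus strand): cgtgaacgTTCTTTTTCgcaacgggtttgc
EEF2 (chr19:3985444-3985473, minus strand): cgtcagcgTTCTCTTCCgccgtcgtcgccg
EIF3D (chr22:36529147-36529176, minus strand): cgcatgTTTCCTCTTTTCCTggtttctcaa
EIF3F (chr11:7987327-7987356, plus strand): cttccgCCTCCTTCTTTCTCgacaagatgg
EIF2S3 (chrX:24054946-24054975, plus strand): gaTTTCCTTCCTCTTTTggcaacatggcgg
EIF2A (chr3:150546777-150546806, plus strand): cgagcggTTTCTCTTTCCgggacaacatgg
EIF4B (chr12:53006446-53006475, plus strand): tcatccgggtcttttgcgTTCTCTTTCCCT
EIF4A2 (chr3:186783567-186783596, plus strand): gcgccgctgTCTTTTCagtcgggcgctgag

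Windows of factors that were higher with BCAA are shown in the same way for comparison. EIF4E, EIF4G1, EIF4E2 and EIF4A3 were higher in both lines, and EIF2B1 in 769-P.
EIF4E (chr4:98929114-98929143, minus strand): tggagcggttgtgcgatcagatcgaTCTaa
EIF4G1 (chr3:184315154-184315183, plus strand): gggccgaCCCTCacttgcctgaaaccggct
EIF4E2 (chr2:232550679-232550708, plus strand): agcggaagtcaCTCCCTgaggcagtggcga
EIF4A3 (chr17:80147109-80147138, minus strand): cggcagcggcacagcgaggTCggcagcggc
EIF2B1 (chr12:123633667-123633696, minus strand): gtacggaagtgcgCCggaagtggggtgcgg

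The longest run was 9 bases at the median, from 4 to 15, in the 13 matched members that were lower in both lines, and 4.5 bases, from 2 to 8, in the 10 that were higher in both. A run of at least 5 that covered the annotated first base was present in 10 of the 13 and 1 of the 10, beside 11.9% of the 27305 genes in the promoter table. Runs of at least 8 anywhere in the window were present in 9 of the 13 and 1 of the 10, beside 15.4% of all genes. Where a gene had several listed starts, the longest run was taken, and EIF2S3 and EIF2S3B count as 2 although they are copies. Several members went against the pattern, and the windows of EEF1B2, EIF3K, EIF1 and EIF1B follow. EIF4H has a run of 8 that misses the first base and was higher in both lines. EEF1B2 has the longest run of all 45, of 17 bases, and was not called in either line, though same-strand genes cover 16.4% of its exon bases. EIF3K has a run of 9 and was higher in 769-P, whereas EIF1 and EIF1B, with runs of 7 and 4 that miss the first base, were strongly reduced.
EEF1B2 (chr2:206159885-206159914, plus strand): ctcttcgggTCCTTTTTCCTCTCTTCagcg
EIF3K (chr19:38619178-38619207, plus strand): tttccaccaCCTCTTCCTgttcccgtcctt
EIF1 (chr17:41688875-41688904, plus strand): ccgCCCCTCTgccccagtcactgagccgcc
EIF1B (chr3:40309697-40309726, plus strand): caTTTTgtgcgagaagccgcagcgccgcct

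**Figure D5:**
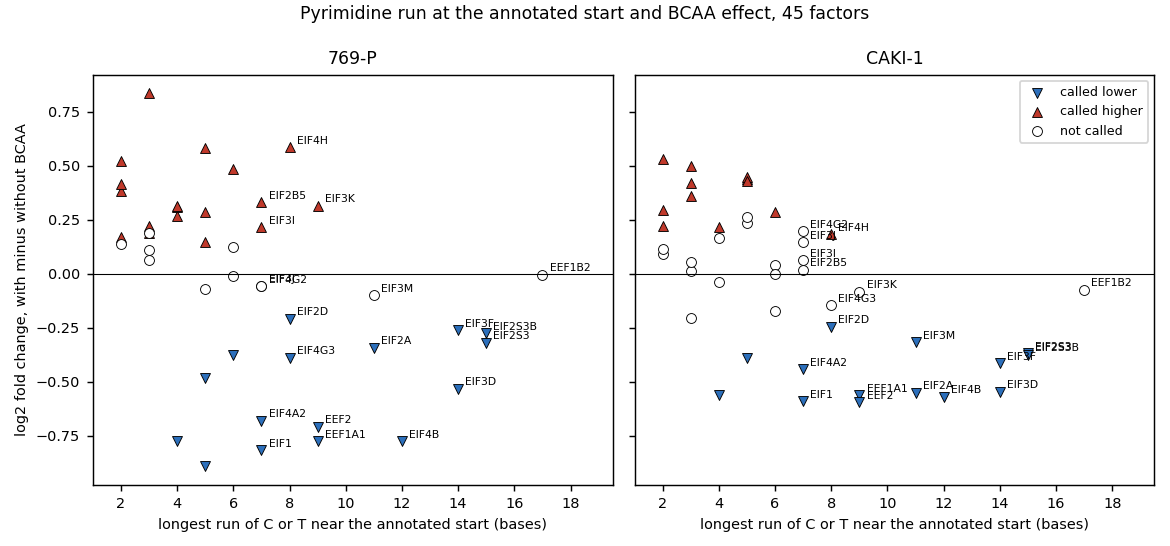
Longest run of C or T in the 30 bases around the annotated start (x, bases) against the log2 fold change with BCAA (y) for the 45 matched factors in 769-P (left) and CAKI-1 (right). Downward triangles were called lower, upward triangles higher and open circles neither. Apart from EIF3K in 769-P and EIF4H in both lines, no factor with a run of at least 8 bases was called higher. EEF1B2 at 17 bases lies near 0.

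The E-box CACGTG, which reads the same on both strands and is a known site of MYC and related factors, was searched in the whole window from 250 bases before to 50 after the start. It was present in 12 of the 45 matched members, in 5 of the 10 higher in both lines and in 3 of the 13 lower in both, beside 8.78% of all genes in the table. The 5 were EEF2K, EIF4A3, EIF4E, EIF4G1 and EIF4H. Both matches of EIF4E and EIF4G1 are shown because no other member higher in both lines had more than 1, and EIF4B is shown as a reduced factor with the same letters. EIF4G1 has 3 listed starts, and its distances are from the first of them, whereas the EIF4G1 window shown further above is at another.
EIF4E, 225 bases before the start (chr4:98929341-98929370, minus strand): ctacccatcggcCACGTGaccagtcctttt
EIF4E, 72 bases before the start (chr4:98929188-98929217, minus strand): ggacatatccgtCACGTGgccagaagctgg
EIF4G1, 144 bases before its first listed start (chr3:184314450-184314479, plus strand): ggctgtggctgtCACGTGacggggcggggg
EIF4G1, 67 bases before its first listed start (chr3:184314527-184314556, plus strand): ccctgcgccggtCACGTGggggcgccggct
EIF4B, 22 bases before the start (chr12:53006422-53006451, plus strand): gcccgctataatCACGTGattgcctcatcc

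The ATF4-type composite element, searched as TGATGNAA on either strand, was found in 1 of the 45, EIF4E3, beside 4.46% of all genes. These matches are letters in a window, and no binding was measured.

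Genes that work with the factors were read from a list of partners fixed for this purpose. Of 19 partners, 18 were tested in 769-P, with 4 higher, 6 lower and a median log2 fold change of 0.04, beside 20.3% and 18.2% of all genes tested. In CAKI-1, 6 of 19 were higher and 5 lower, with a median of 0.08, beside 10.8% and 9.05% of all genes. PPP1R15A, the stress-induced subunit of the eIF2 alpha phosphatase, had 2024 and 2301 with BCAA and 12496 and 12528 without it in 769-P, a log2 fold change of -2.53, and 4049 and 5451 against 8858 and 9385 in CAKI-1, a log2 fold change of -0.96. Its constitutive counterpart PPP1R15B had 0.04 in 769-P and rose by 0.47 in CAKI-1. MKNK2, a kinase of eIF4E, fell by 1.14 and 0.29, and PABPC1, the poly(A)-binding protein that contacts eIF4G, had 90178 and 87084 against 141123 and 146622 in 769-P and 172511 and 162103 against 199289 and 187341 in CAKI-1. ABCE1, the recycling ATPase, rose by 0.36 and 0.25, and CDC123, which assembles eIF2, by 0.21 and 0.24. DHPS, the first enzyme of hypusine synthesis, fell by 0.20 and 0.37, opposite to EIF5A. DOHH, the next enzyme, rose by 0.33 in CAKI-1 and had 0.06 in 769-P, which was not called.

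Of the EIF and EEF genes set aside by the rule, 11 were also in both tables. Of these, 5 were higher and 2 lower in 769-P, beside 20.3% and 18.2% of all genes tested. In CAKI-1, 4 were higher and none lower, beside 10.8% and 9.05% of all genes. EIF4EBP1, the mTORC1-controlled repressor of eIF4E, had 4419 and 4407 with BCAA and 9416 and 9542 without it in 769-P, a log2 fold change of -1.10. In CAKI-1 it had 3263 and 3847 against 3726 and 4048, and the log2 fold change of -0.13 was not called (adjusted p of limma 0.304). EIF4EBP2 rose by 0.41 and 0.46, the same direction as EIF4E.

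The calls in CAKI-1 rest on all 4 of its libraries. With any 1 of them left out, limma called none of the 21347 genes there, although 4084 to 5590 had an unadjusted p under 0.05, and none of the 54 members. When the spread was taken from all 7 libraries left, 28 to 39 members were called, and all 32 members called in CAKI-1 kept their sign in each case. In 769-P, 10 to 24 members were called with 1 library left out and 34 to 37 with the spread of 7 libraries, with all 41 signs kept. EEF1A1, EIF1, EIF2B1, EIF3D, EIF3L, EIF4B, EIF4E2 and EIF4H were the 8 called in 769-P under every alternative run. Quantile normalization or equal depth ended the CAKI-1 calls of EIF2S1, EIF3C, EIF3G, EIF4A3, EIF4E and EIF4H and the 769-P calls of EIF2B2, EIF2B4, EIF2S2, EIF4ENIF1 and EIF5AL1, as well as the differences of EIF3M and EIF4G3, with the same sign throughout. A single gene cannot be tested by permutation here, since 2 libraries against 2 allow no exact two-sided p below 0.333.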

How the data were processed

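RNA sequencing was done on 769-P and CAKI-1 cells with or without BCAA for 16 h, with 2 libraries per condition. The paper's legend for the RNA-seq states a larger n than the 2 libraries per condition used here. The deposited signal values are gene-level reads that the authors divided by 1 size factor per library, separately for each line and without a length correction. All values came out as whole reads (tolerance 1e-06) once each column was divided by its step, the smallest positive value of that column. The submitters' processing notes name Trim Galore, TopHat2 2.1.0, SAMtools 1.3.1, HTSeq 0.6.0, DESeq2, DESeq and hg38, with no roles. The annotation and the strand setting are not given in the sources used here. By default HTSeq drops reads that fit several genes, which lowers counts of copies and overlapping genes, and whether that default was kept is not stated.

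Values were tested per line with limma 3.58.1 (R 4.3.3, mean-variance trend) on log2(value + 1), for genes whose values averaged 1 or more across the 4 libraries of a line, with no replicate block. Fold changes on this scale understate those of low genes. The difference between the lines was fitted over 8 libraries. P-values were adjusted by Benjamini-Hochberg over all genes. As alternatives, edgeR 4.0.16 and DESeq2 1.42.0 were run on the recovered reads, and other pseudocounts, filters, scalings, equal depth, a replicate block, a pooled spread and omission of each library were tried. Omission with the spread of 7 libraries was added after seeing the data. On simulated data with 200 changed genes per comparison, the fit recovered 84% of changes of 1 log2 unit in 769-P, 85% in CAKI-1 and 80% for the difference. In each line 100 of these genes changed by 1 log2 unit and 100 by 2. Smaller changes were not simulated. The members' log2 fold changes ran from -0.89 to 0.84 in 769-P and from -0.78 to 0.53 in CAKI-1. The recovery therefore does not tell how many changes of those sizes were missed.

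The members and all gene lists were chosen with earlier results of these data known. Members were named by a rule: those called in both lines, called with a log2 fold change of at least 0.5 in size, called for the difference at that size, at the ends of each group, or in a pair of paralogs. Since over 30 met it, values in every library are given for all members called in both lines, and others that changed less are given by range or log2 fold change. Symbols came from GENCODE 29 and promoter sequences from RefSeq.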

Additional observations from a re-analysis of the deposited data

Results flagged for a closer look

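In 19 of the 54 factors the BCAA effect differed between the lines by the test of the difference itself (limma over 8 libraries, adjusted p under 0.05). The value given is the log2 fold change in 769-P minus that in CAKI-1. The effect was further up in 769-P for EIF4E by 0.48, EIF2B4 by 0.43, EIF2B1 by 0.43, EIF4H by 0.40, EIF3K by 0.40, EIF2B5 by 0.31, EIF6 by 0.30 and EIF3M by 0.22. It was further down for EIF4A1 with -1.15, EIF5 with -0.42, EIF2B3 with -0.39, EIF1AX with -0.39, EIF1AD with -0.31, EIF5A with -0.28, EIF4G2 with -0.25, EIF4G3 with -0.24, EIF5AL1 with -0.23, EIF1 with -0.23 and EIF4B with -0.21. Of the 19, 6 were called under every alternative run, EIF1AX, EIF2B1, EIF3K, EIF4H, EIF5 and EIF5A. For EIF1 and EIF4B both lines were called lower, and their differences were not called at an adjusted p of limma under 0.01, with the replicate block or without any of 5 of the 8 libraries, with adjusted p-values up to 0.119 and 0.152. EIF4A1 had normalized values of 64.6 to 166 in the 8 libraries, and its difference carries a 95% confidence interval from -1.95 to -0.35. EIF5AL1 shares its course with EIF5A and adds no separate observation. With 2 libraries per condition no single group was searched for an outlying library.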

How the results depend on the processing

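No called fold change turned its sign under any alternative, and edgeR kept all 92 calls (41 in 769-P, 32 in CAKI-1, 19 for the difference), DESeq2 89 of them. At an adjusted p under 0.01, 3 members were further up and 3 further down in 769-P and 6 were higher in both lines, which with quantile normalization were 5 and with equal depth 6. The replicate numbers did not pair the libraries (correlation of deviations -0.0884 in 769-P and 0.0615 in CAKI-1), and with the replicate block 3 members were further down in 769-P and 82 of the 92 calls held. Quantile normalization moved the medians of eIF2/eIF2B to 0.16 and -0.0676, eIF4 in 769-P to 0.13 and elongation in 769-P to -0.23, where edgeR gave -0.26 and equal depth -0.29. With 1 of the 8 libraries left out, the members called were 4 to 18 higher and 5 to 23 lower in 769-P. In CAKI-1 they were 0 to 12 higher and 0 to 20 lower. These upper ends are the full counts, reached only by omitting a library of the other line, which does not enter the fit. Omitting a library of the line itself gave fewer calls in 769-P every time, and 0 in CAKI-1. The members called were 0 to 14 lower in both lines and 0 to 5 higher in both, with 1 library of a condition assumed to vary like the others. For the difference they were 5 to 10 further up and 3 to 12 further down, among them 7 without CAKI-1 with BCAA replicate 1 and 4 without the first library without BCAA of either line. The medians then ranged from 0.18 to 0.26 for eIF2/eIF2B in 769-P and from -0.0618 to 0.0029 in CAKI-1 (above 0 without CAKI-1 without BCAA replicate 2), -0.33 to -0.25 for eIF3 in CAKI-1, 0.0895 to 0.25 for eIF4 in CAKI-1, and -0.48 to -0.32 for elongation in CAKI-1. The causes were not tested. Depth limits EIF4A1, EIF3CL and EIF4E3, the members with the fewest reads.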
